A study of Mus musculus with 16 samples.

Results

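The centromeric end of mouse chromosome 6, below 74 Mb in mm9 coordinates, was examined for contacts with a pair of promoters by 4C-seq, a circular form of chromosome conformation capture read by sequencing. All restriction sites of chromosome 6 with a start below 74 Mb in the site lists of the 16 libraries were taken. They came to 6479 sites, of 15207 sites on chromosome 6 and 139486 in the series, after starts within 7 bp of each other in different libraries were counted as 1 site. Libraries of the Cdca3 viewpoint listed 6321 of them and libraries of the Pole viewpoint listed 989.

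The series used mouse embryonic fibroblasts, primary cells taken from embryos at E13.5 and cultured up to passage 4. There were 4 cultures homozygous for the Rb1L allele (Rb1L/L) and 4 with an intact Rb1 gene (Rb1+/+), and each culture gave 1 library with its viewpoint at the Cdca3/Usp5 bidirectional promoter and 1 at the Pole/Pxmp2 bidirectional promoter. The series concerns pRb and condensin II at promoters, and comparing the genotypes asks if a promoter's contacts change when pRb carries the L allele. The labels name no other allele, strain, treatment or sex. Rb1 encodes pRb, which restrains cell cycle entry, and the L allele is known from other work to alter the cleft that binds proteins with an LXCXE motif. No expression data were used, so neither the cell type nor the genotype could be checked from these lists.

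In 4C-seq the chromatin is crosslinked, cut and ligated, and the fragments joined to the viewpoint are amplified and read. Contacts on the viewpoint's own chromosome (cis) are known to thin out with distance, and contacts with other chromosomes (trans) are rarer. Far along a chromosome, contacts gather in blocks, since active and inactive chromatin each tend to lie with their own kind. Mouse chromosomes have the centromere at one end, and coordinates are counted from it. Cdca3, a cell cycle protein that takes part in mitotic entry, and Usp5, a deubiquitinating enzyme, lie on chromosome 6 on the telomeric side of the stretch, so their contacts with it are long-range cis contacts. Pole, which encodes the replicative DNA polymerase epsilon's catalytic part, and Pxmp2, a protein of peroxisome membranes, lie on chromosome 5, so the same stretch is seen in trans.

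The promoter of Cdca3 is shown because it is the locus from which the cis contacts were read. The line gives the 250 bases before the gene's start in the RefSeq promoter table, at chr6:124829926-124830175 on the plus strand of GRCm38.p6, a build other than that of the site lists. Capitals mark CATG, the letters cut by NlaIII, the second enzyme of the assay.
Cdca3 promoter: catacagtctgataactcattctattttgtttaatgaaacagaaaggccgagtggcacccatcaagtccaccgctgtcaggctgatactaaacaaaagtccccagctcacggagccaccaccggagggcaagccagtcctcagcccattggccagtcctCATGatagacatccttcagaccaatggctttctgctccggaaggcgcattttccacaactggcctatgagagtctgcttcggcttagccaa
The window held 1 match to CATG and 0 matches to AAGCTT, the letters cut by HindIII, the first enzyme. Both motifs read the same on either strand and do not overlap each other. Among 32851 promoter windows of this length in the table, 53.9% held CATG and 6.22% held AAGCTT. Which HindIII fragment served as the viewpoint is not marked in the lists.

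The deposited lists hold sites and called regions without read counts, so the depth of each library is unknown and the number of listed sites was its only measure of yield. The Cdca3 libraries listed between 15802 and 39650 sites over the genome and the Pole libraries between 6485 and 17522. In each library every listed site below 74 Mb lay inside a called region. The first listed site of chromosome 6 was at 3.52 Mb. The upper limit fell in empty ground. The last site below it, at 73425981, was in 1 Pole library of Rb1L/L cells, and the first above it, at 76282208, in 1 Cdca3 library of Rb1+/+ cells.

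The number of Cdca3 contacts in the stretch did not differ detectably between genotypes. Rb1L/L replicates 1 to 4 listed 1557, 3625, 3440 and 2805 sites there, and Rb1+/+ replicates 1 to 4 listed 2091, 2367, 3100 and 3177. The Rb1L/L libraries held both the lowest and the highest numbers, and the Rb1+/+ libraries all lay between them. The means were 2857 ± 935 sites in Rb1L/L and 2684 ± 538 in Rb1+/+ (SD, n = 4 each), a difference of 173 sites with a 95% interval from -1620 to 1534. The two-sided exact permutation test over the 70 assignments of 8 libraries gave p = 0.829, where 0.0286 was the smallest p possible. Rb1L/L was higher in 2 of the 4 same-numbered pairs.

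The share of each library's chromosome 6 sites that lay in the stretch did not differ detectably either. The stretch held 29.6%, 37.7%, 36.6% and 33.8% of the chromosome 6 sites of Rb1L/L replicates 1 to 4. In Rb1+/+ replicates 1 to 4 it held 33.9%, 34.1%, 33.3% and 34.0%. The 4 Rb1+/+ shares lay within 1 percentage point, and the Rb1L/L shares fell on both sides of them. The means were 34.4% ± 3.62 in Rb1L/L and 33.8% ± 0.376 in Rb1+/+ (SD, n = 4 each; difference 0.584 percentage points, 95% interval -4.56 to 4.40, exact permutation p = 0.943). The spread itself was not tested. The plot of sites by library shows both measures.

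As a share of the whole list, with sites of all chromosomes, the stretch held 9.85%, 9.14%, 9.23% and 9.87% in Rb1L/L replicates 1 to 4 and 10.5%, 9.66%, 11.3% and 10.3% in Rb1+/+ replicates 1 to 4. Only Rb1+/+ replicate 2 lay within the Rb1L/L range, and Rb1L/L was lower in each of the 4 same-numbered pairs. The means were 9.52% ± 0.391 in Rb1L/L and 10.4% ± 0.666 in Rb1+/+ (SD, n = 4 each; difference -0.906 percentage points, 95% interval -2.14 to 0.207, exact permutation p = 0.0857, adjusted 0.771 over 9 genotype tests). Without Rb1+/+ replicate 2 the difference was -1.16 points (exact permutation p = 0.0286). With only sites of a deposited value under 0.01 it was -0.097 points (exact permutation p = 0.914). This share was added after the values were seen.

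**Figure D1:**
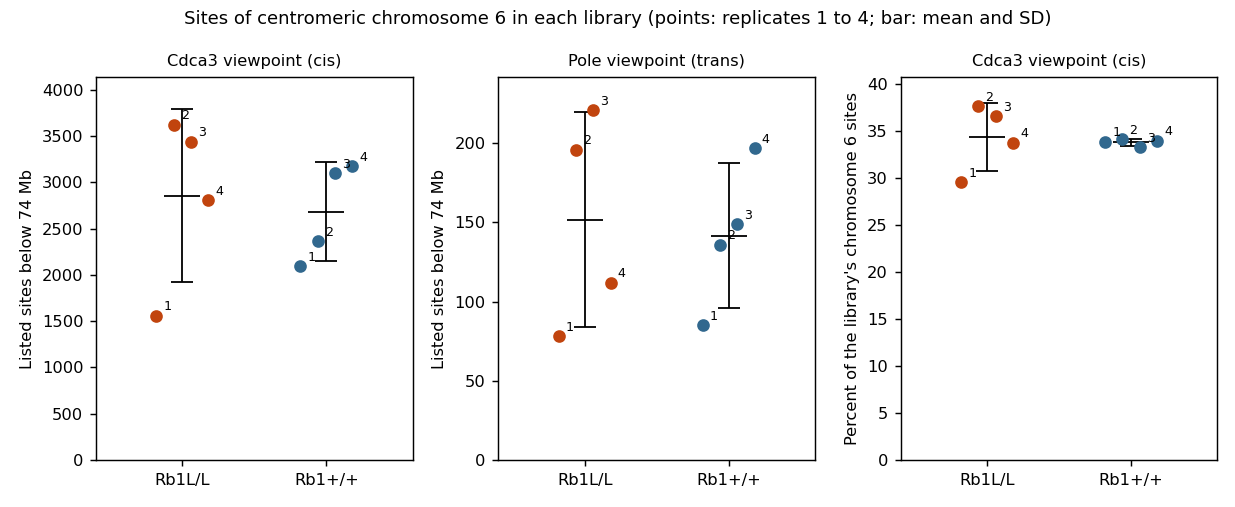
Listed sites below 74 Mb of chromosome 6 per library at the Cdca3 viewpoint (left) and the Pole viewpoint (middle), and the percent of each Cdca3 library's chromosome 6 sites (right), with Rb1L/L left of Rb1+/+ in each panel. Points are replicates 1 to 4, bars give the mean and SD (n = 4), and Rb1L/L replicate 1 has the lowest value in all 3 panels.

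Across all 8 Cdca3 libraries the share of chromosome 6 sites in the stretch went with the number of listed sites (Pearson r = 0.896, permutation p = 0.00327, adjusted over both viewpoints 0.00655; Spearman rho = 0.738, permutation p = 0.0458, adjusted 0.0917). Without Rb1L/L replicates 1 and 2, the libraries farthest from the median list size, r was 0.716 over 6 libraries (exact permutation p = 0.143), so the call did not hold without them. At the Pole viewpoint, where the share was that of trans sites, the correlation with list size had r = -0.657 (permutation p = 0.0817, adjusted 0.0817) and rho = -0.571 (permutation p = 0.151, adjusted 0.151). Without Rb1L/L replicate 1 and Rb1+/+ replicate 1 the Pole r was -0.628 (exact permutation p = 0.214). The shares have different denominators, so these coefficients were not compared. The part of list size in the shares above was not tested further.

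The authors' called regions numbered 21 to 28 per Cdca3 library below 74 Mb. They covered 18.8, 27.7, 27.3 and 26.6 Mb in Rb1L/L replicates 1 to 4 and 21.6, 24.0, 26.6 and 27.7 Mb in Rb1+/+ replicates 1 to 4. Rb1L/L replicate 1, the library with the fewest listed sites, stood below all others. Coverage averaged 34.0% ± 5.70 of the stretch in Rb1L/L and 33.7% ± 3.69 in Rb1+/+ (SD, n = 4 each; difference 0.255 percentage points, 95% interval -11.9 to 8.33, exact permutation p = 0.886). Listed sites per covered Mb averaged 111 ± 22.0 in Rb1L/L and 107 ± 10.4 in Rb1+/+ (SD, n = 4 each).

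The Pole libraries, which see the stretch in trans, listed 78, 196, 221 and 112 sites in Rb1L/L replicates 1 to 4 and 85, 136, 149 and 197 in Rb1+/+ replicates 1 to 4. The genotypes overlapped through most of their range, with means of 152 ± 67.8 in Rb1L/L and 142 ± 46.0 in Rb1+/+ (SD, n = 4 each; difference 10 sites, 95% interval -119 to 136, exact permutation p = 0.886). As a share of the trans sites, those off chromosome 5, the stretch held 2.42% ± 0.516 in Rb1L/L and 2.59% ± 0.556 in Rb1+/+ (difference -0.171 percentage points, 95% interval -1.61 to 0.889, exact permutation p = 0.686). Between 2 and 6 called regions per Pole library covered 16.5% ± 7.52 of the stretch in Rb1L/L and 16.1% ± 6.83 in Rb1+/+ (difference 0.435 percentage points, 95% interval -16.0 to 14.5, exact permutation p = 1). The genotype difference in the log2 share of all listed sites did not differ detectably between viewpoints (Cdca3 minus Pole -0.12, 95% interval -0.75 to 0.87, exact permutation p = 0.629). As a share of the whole list the Pole sites of the stretch made 1.14% ± 0.232 in Rb1L/L and 1.14% ± 0.203 in Rb1+/+ (exact permutation p = 1). Over the 9 genotype tests, all but that of the whole-list share at Cdca3 had an adjusted p of 1.

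Seen from the same cultures, the stretch took a much larger part of the Cdca3 lists than of the Pole lists. It held 9.98% ± 0.700 of all sites of a Cdca3 library and 1.14% ± 0.202 of a Pole library (SD, n = 8 each). The Cdca3 share was higher in 8 of 8 cultures, by 8.84-fold on the geometric mean (95% interval 7.18 to 11.0). Per culture the log2 ratio lay between 2.76 and 3.63. The two-sided exact sign-flip permutation test over 8 cultures gave p = 0.00781, the smallest it allows, and 0.0182 adjusted over 7 such tests of viewpoint and position.

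Within each viewpoint the stretch was compared with the next 40 Mb, from 74 to 114 Mb, which held 4329 sites over the 16 libraries. Cdca3 libraries listed 39.3 ± 10.1 sites per Mb below 74 Mb and 60.5 ± 12.5 per Mb in the neighbour (SD, n = 8). The density was lower below 74 Mb in 8 of 8 libraries, at 0.642-fold of the neighbour (95% interval 0.596 to 0.685, log2 -0.64, exact sign-flip permutation p = 0.00781, adjusted 0.0182). In the 4 Rb1+/+ libraries the log2 ratio lay between -0.65 and -0.62, and in the 4 Rb1L/L libraries between -0.86 and -0.48. Called regions covered 33.8% ± 4.44 of the stretch and 41.4% ± 5.78 of the neighbour.

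The Pole libraries also listed fewer sites per Mb below 74 Mb, although neither stretch lies on their own chromosome. They had 2.08 ± 0.765 sites per Mb below 74 Mb and 3.35 ± 1.79 in the neighbour (SD, n = 8), 0.680-fold with a 95% interval from 0.513 to 0.898 (log2 -0.56, exact sign-flip permutation p = 0.0234, adjusted 0.0410). The ratio was below 1 in 7 of 8 libraries, the exception being Rb1L/L replicate 1 with a log2 ratio of 0.21. With only sites of a deposited value under 0.01, the Pole log2 ratio was -0.04 (exact sign-flip permutation p = 0.953), so the call did not hold there. The Cdca3 and Pole log2 ratios of a culture differed by -0.08 on average (95% interval -0.55 to 0.38, exact sign-flip permutation p = 0.688, adjusted 0.802), negative in 4 of 8 cultures. The density of HindIII sites in either stretch was not known here, since no mm9 genome was used.

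Inside the stretch the cis contacts thinned out towards the centromere. Between 37 and 74 Mb the Cdca3 libraries listed 1851 ± 459 sites and below 37 Mb 919.5 ± 264 (SD, n = 8). Rb1L/L replicates 1 to 4 had 1062, 2334, 2299 and 1893 sites between 37 and 74 Mb and 495, 1291, 1141 and 912 below 37 Mb. Rb1+/+ replicates 1 to 4 had 1464, 1508, 2169 and 2077 between 37 and 74 Mb and 627, 859, 931 and 1100 below 37 Mb. Every Cdca3 library was denser in the section nearer the viewpoint, by 1.84-fold per Mb (95% interval 1.67 to 2.02, log2 0.88, exact sign-flip permutation p = 0.00781, adjusted 0.0182).

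The fall was not even. In bins along the stretch, the bin from 64 to 74 Mb had a median of 76.5 Cdca3 sites per Mb over the 8 libraries (54.0 to 87.9), the densest of the 7 bins in median. The next bin, from 54 to 64 Mb, had 33.0 (14.3 to 48.3), fewer than the 3 bins beyond it. Those had 43.4 from 44 to 54 Mb, 49.5 from 34 to 44 Mb and 44.6 from 24 to 34 Mb. The bins nearest the centromere were the sparsest, with 26.4 (12.3 to 36.8) from 14 to 24 Mb and 13.6 (6.64 to 24.2) from 3 to 14 Mb. The latter bin was counted over its full length, with the ground before the first listed site included.

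**Figure D2:**
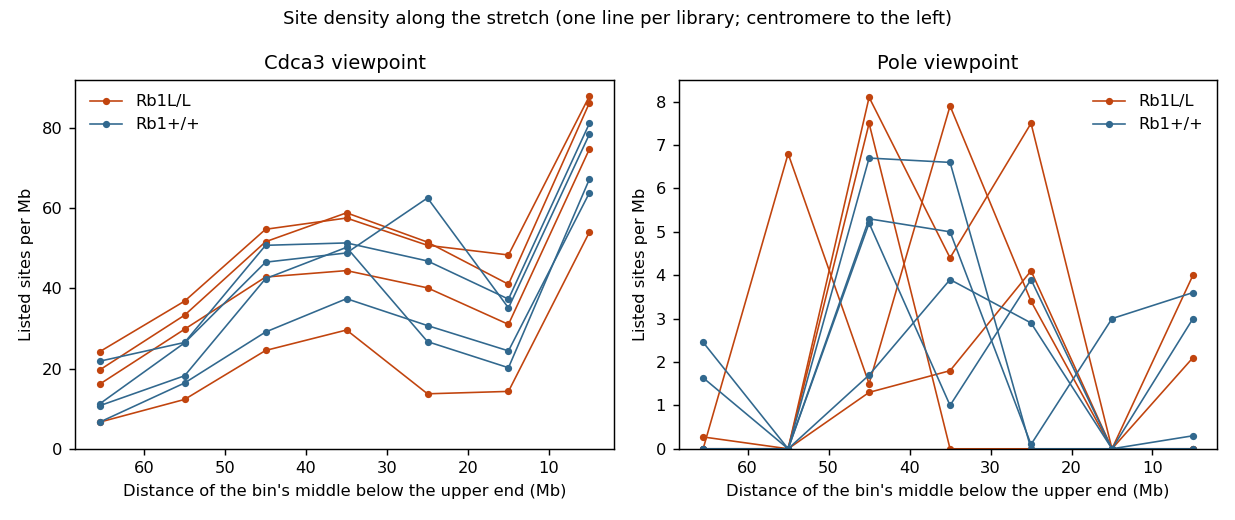
Listed sites per Mb in bins along the stretch, as distance of the bin's middle below the upper end, with one line per library for the Cdca3 viewpoint (left) and the Pole viewpoint (right); the vertical scales differ. All Cdca3 lines are highest at the right end and low at the left end, where the median was 13.6 sites per Mb, while Pole lines peak in the middle bins.

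The bin medians of the trans view peaked elsewhere, although differences between bins were not tested. Pole libraries had a median of 5.25 sites per Mb from 24 to 34 Mb, 4.15 from 34 to 44 Mb and 3.15 from 44 to 54 Mb. From 54 to 64 Mb, from 14 to 24 Mb and from 3 to 14 Mb the median was 0, and from 64 to 74 Mb it was 1.20. Split at 37 Mb, Rb1L/L replicates 1 to 4 had 0, 112, 140 and 82 Pole sites between 37 and 74 Mb and 78, 84, 81 and 30 below 37 Mb. Rb1+/+ replicates 1 to 4 had 68, 69, 79 and 115 between 37 and 74 Mb and 17, 67, 70 and 82 below 37 Mb.

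The density from 37 to 74 Mb over that below 37 Mb was above 1 in 6 of 8 Pole libraries, but the mean log2 ratio was -0.39 (exact sign-flip permutation p = 0.984, adjusted 0.984), because Rb1L/L replicate 1 had no site between 37 and 74 Mb. Its log2 ratio of -7.44 depends on the 0.5 added to each number of sites. Without that culture the mean was 0.61 (exact sign-flip permutation p = 0.0469). The difference between viewpoints, Cdca3 minus Pole, was 1.27 (95% interval -0.23 to 4.31, exact sign-flip permutation p = 0.156, adjusted 0.219). It was 0.25 without Rb1L/L replicate 1 and 1.56 without Rb1+/+ replicate 1, where p was 0.0469.

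Contacts of Cdca3 recurred in many of the same windows from library to library. Divided into 148 windows of 500 kb, the stretch had a Cdca3 site in 77 windows and none in 71. The 71 include the windows before the first listed site of the chromosome, at 3.52 Mb. In 35 windows all 8 Cdca3 libraries had a site, and these windows held 78.6% of the sites summed over libraries. Another 13 windows had sites in 7 libraries, while only 7 windows were listed by a single library. The map of windows shows the same vertical bands in all Cdca3 rows.

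**Figure D3:**
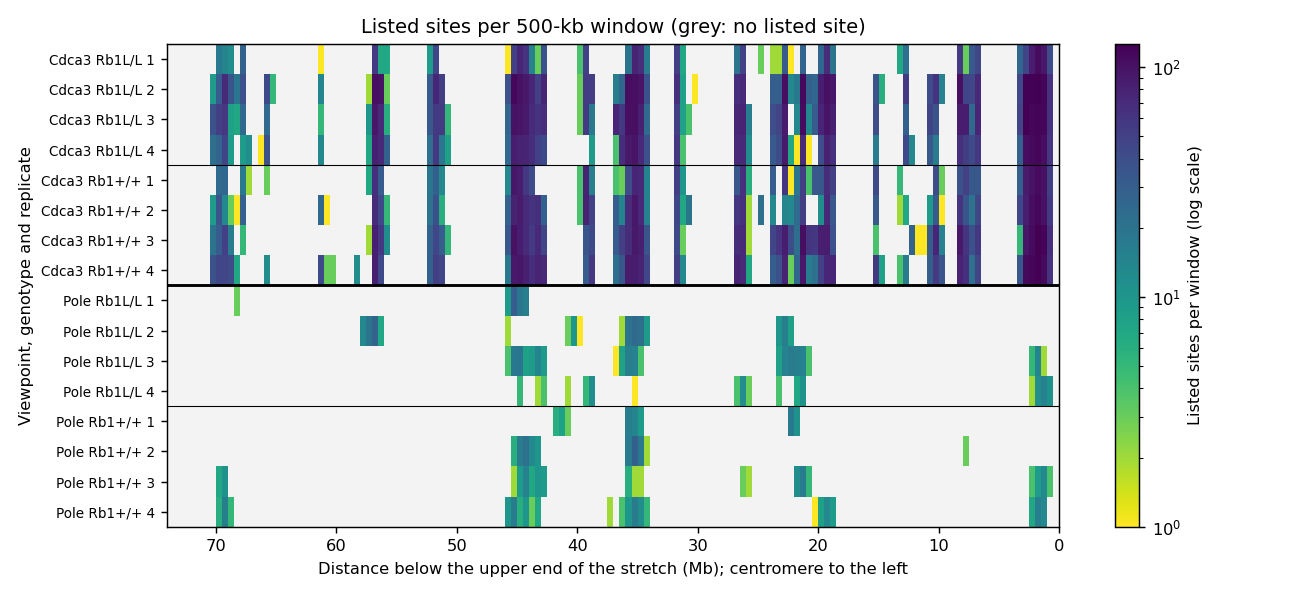
Number of listed sites in each 500-kb window of the stretch (colour, log scale; grey where a library listed no site), by distance below the upper end, with Cdca3 libraries above Pole libraries and Rb1L/L above Rb1+/+ within each. Of the 148 windows, 77 have a site in a Cdca3 library and 47 in a Pole library.

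Bases called in all 8 Cdca3 libraries made up 18 blocks with 13.6 Mb, or 18.3% of the stretch, and 39.4 Mb (53.3%) was called in no Cdca3 library. Both shares are of the whole stretch, with the ground before the first listed site included. The all-library blocks held 3594 of the 6321 Cdca3 sites (56.9%), a description only, since the same lists made both. With calls in at least 6 of 8 libraries there were 24 blocks with 22.7 Mb. Of the 18 blocks, 4 were at least 1 Mb long, and the shortest was 0.005 kb.

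The longest block, at 70671812 to 73362448, was 2.69 Mb long and lay nearest the viewpoint. It held 693 Cdca3 sites, and 229 of them (33.0%) were listed in all 8 libraries. Rb1L/L replicates 1 to 4 listed 403, 592, 586 and 529 sites in it and Rb1+/+ replicates 1 to 4 listed 480, 510, 520 and 561, so the genotypes overlapped. Over the 8 libraries its called start varied by 127 kb and its called end by 53.0 kb. Edges of other long blocks varied more: the end of the second by 1190 kb, the start of the third by 1191 kb and the start of the fourth by 2090 kb. It also held 106 Pole sites, from 4 Pole libraries.

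The second block, 2.06 Mb at 28355873 to 30411307, lay far nearer the centromere and yet held 546 Cdca3 sites. Rb1L/L replicates 1 to 4 listed 204, 399, 370 and 321 there and Rb1+/+ replicates 1 to 4 listed 291, 319, 329 and 346. Only 37 of its sites (6.78%) were in all 8 libraries. The third block, 1.57 Mb at 38157610 to 39723009, held 407 sites, 35 of them in all 8 libraries. Rb1L/L replicates 1 to 4 listed 183, 312, 277 and 270 there and Rb1+/+ replicates 1 to 4 listed 206, 233, 263 and 278. These 2 blocks were also the ones most often listed in trans, with 201 and 181 Pole sites, each from 7 Pole libraries.

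The fourth block, 1.03 Mb at 54279629 to 55312540, held 286 Cdca3 sites, with 28 Pole sites from 1 library. The fifth, 0.950 Mb at 47180100 to 48130209, held 221 Cdca3 sites, with 23 Pole sites from 2 libraries. The sixth, 0.818 Mb at 16896636 to 17714945, held 252 Cdca3 sites, with 37 Pole sites from 1 library. In these 3 blocks Rb1L/L replicate 1 had the fewest sites. In the 1.03-Mb and 0.950-Mb blocks the other libraries of both genotypes overlapped. In the 0.818-Mb block the other libraries did not overlap. Rb1L/L replicates 2 to 4 listed 153, 137 and 119 sites there, and Rb1+/+ replicates 1 to 4 listed 103, 96, 111 and 105. With Rb1L/L replicate 1, at 62 sites, the genotypes overlapped in that block too, and the difference was not tested.

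The seventh block, 0.746 Mb at 21701935 to 22447765, had 196 Cdca3 sites. No Pole library listed a site in it, and none of its Cdca3 sites was in all 8 libraries, although each library listed between 48 and 100. The eighth, 0.603 Mb at 65587520 to 66190269, had 171 Cdca3 sites and 2 Pole sites from 1 library. The remaining 10 blocks were at most 0.561 Mb long, and 4 of them held no site of their own in at least 1 library, whose called region spanned them.

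**Figure D4:**
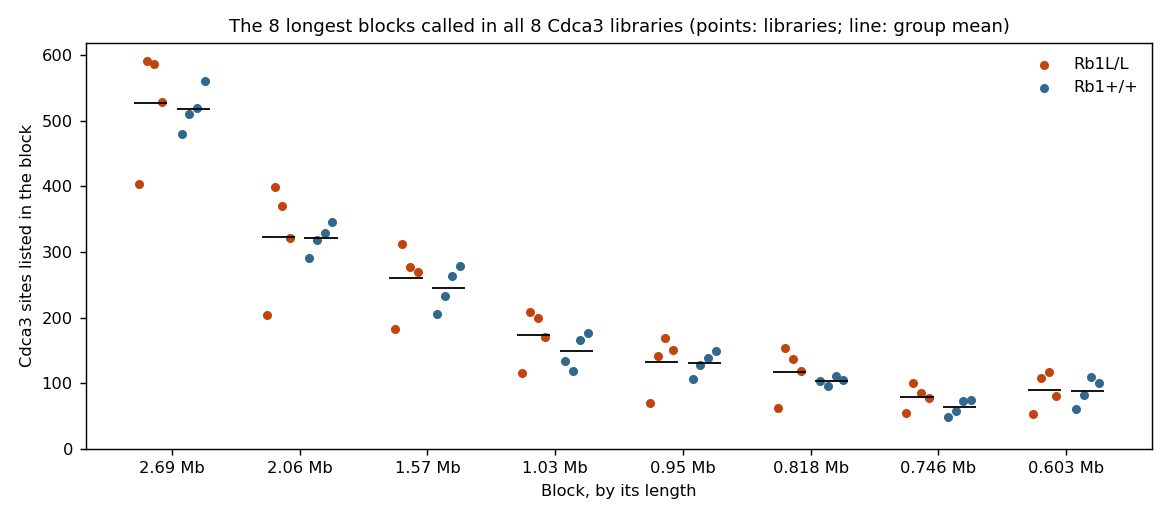
Cdca3 sites listed per library in each of the 8 longest blocks called in all 8 Cdca3 libraries, ordered by block length, with Rb1L/L left of Rb1+/+. Points are libraries and lines are group means; in the 2.69-Mb block Rb1L/L libraries have 403 to 592 sites and Rb1+/+ libraries 480 to 561.

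Long gaps lay largely between the blocks. Some ran past a block's called edge, since gaps were measured between listed sites. Taking the 8 Cdca3 libraries together, 15 gaps of at least 1 Mb between neighbouring listed sites summed to 39.8 Mb, and a gap here means that no site passed the authors' threshold in any of the 8 lists. The sum counts in full a gap that crosses the upper limit, and the parts below the limit made 50.7% of the stretch. The longest was 5.12 Mb, from 23183315 to 28306680, with 2 Pole sites from 1 library inside it. The next gaps were 3.98 Mb from 8535985 to 12516227, 3.58 Mb from 43544871 to 47120958, 3.40 Mb from 18302855 to 21701934, 3.34 Mb from 67356559 to 70693914 and 3.19 Mb from 55463652 to 58658009. In these 5 gaps no Pole library listed a site either.

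Another 2 gaps completed the 8 longest, and both held trans sites. The gap of 3.04 Mb from 31433975 to 34473143 held 33 Pole sites from 3 libraries. The gap of 3.01 Mb from 73269831 to 76282208, which crosses the upper limit of the stretch, held 4 Pole sites from 1 library. A shorter gap of 1.09 Mb, from 15798160 to 16886144, held 30 Pole sites from 1 library and was picked out after its values were seen.

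Few single sites recurred in all 8 Cdca3 libraries, whereas the blocks above are called in all 8 by definition. Of the 6321 Cdca3 sites, 1501 (23.7%) were in 1 library and 352 (5.57%) in all 8, with the classes between falling steadily. Pole sites were far less often shared: 839 of 989 (84.8%) were in 1 library, 120 in 2, 27 in 3, 1 in 4, 2 in 5 and none in 6 or more. Pairs of Cdca3 libraries shared 37.2% ± 6.22 of the sites listed in either (SD over 28 pairs), and pairs of Pole libraries 2.67% ± 1.90. The lists differed in length, with 2770 ± 712 sites of the stretch per Cdca3 library and 147 ± 53.9 per Pole library (SD, n = 8 each). Short lists share few sites even when drawn at random. The part of list length in this contrast was not tested. The Cdca3 overlap was 37.1% within genotypes, 37% between genotypes with different numbers and 38.2% between same-numbered libraries.

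**Figure D5:**
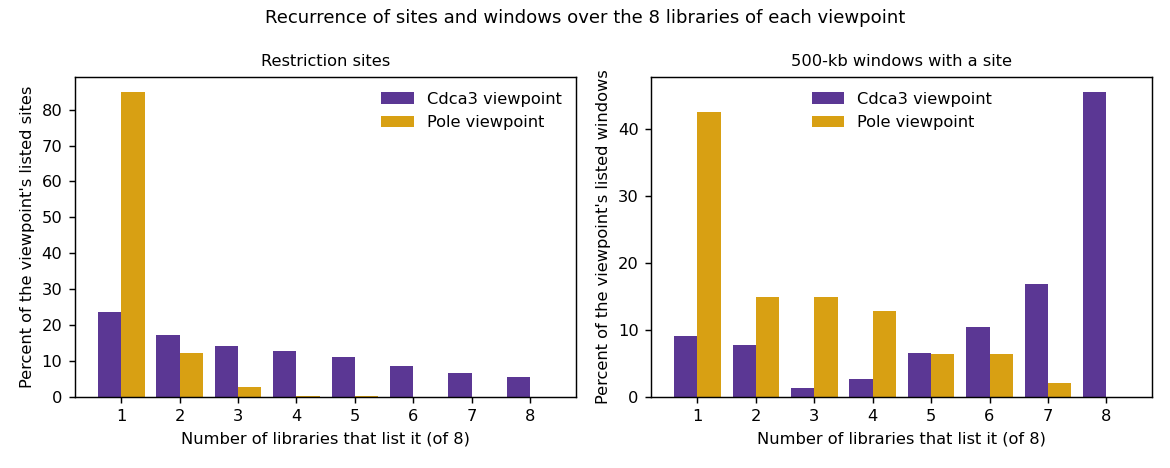
Percent of the restriction sites (left) and of the 500-kb windows with a site (right) that were listed in 1 to 8 libraries, for the Cdca3 viewpoint and the Pole viewpoint. At the Cdca3 viewpoint 5.57% of sites but 35 of 77 windows are in all 8 libraries, and at the Pole viewpoint 84.8% of sites are in 1 library. A Pole library lists 78 to 221 sites of the stretch and a Cdca3 library 1557 to 3625.

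The site with most listings, at 38789797 in the third block, was in 8 Cdca3 and 5 Pole libraries. The site at 29171115 was in 7 Cdca3 and 4 Pole libraries. The sites at 29629094, 38490938 and 38579024 were each in 8 Cdca3 and 3 Pole libraries, the first in the second block and the others in the third. A further 5 sites had the same total of 11 libraries and were left out by position, 3 of them between 72382685 and 72679548 in the longest block.

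Trans contacts fell largely where cis contacts did. Of the 989 Pole sites, 831 (84.0%) were also listed by a Cdca3 library, which is 13.1% of the Cdca3 sites. The Cdca3 lists together held 258 sites per Mb in the longest block and 266 in the second. How many HindIII sites they left unlisted there is not known, so the 84.0% says little beyond shared blocks. Bases called in all 8 Cdca3 libraries, 18.3% of the stretch, held 684 Pole sites (69.2%). Bases called in 1 to 7, 28.4% of the stretch, held 245 (24.8%). Bases called in none, 53.3% of the stretch, held 60 (6.07%). By library, Rb1L/L replicates 1 to 4 had 94.9%, 61.7%, 63.8% and 66.1% of their Pole sites in all-library Cdca3 blocks, and Rb1+/+ replicates 1 to 4 had 45.9%, 89.7%, 74.5% and 83.2%. The libraries varied widely, and of the 60 sites outside any Cdca3 region Rb1L/L replicate 2 had 37 and Rb1+/+ replicate 1 had 18. Both viewpoints list HindIII sites of the same genome, and how evenly those sites or reads could map along the stretch was not tested.

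By window, 41 of the 47 windows with a Pole site also had a Cdca3 site (87.2% of the Pole windows and 53.2% of the 77 Cdca3 windows). Of the 13 windows with sites in at least 4 Pole libraries, 11 were among those listed by all 8 Cdca3 libraries. The 13 windows lay from 28.0 to 31.0 Mb, 38.0 to 39.5 Mb, 52.0 to 52.5 Mb and 71.5 to 73.0 Mb. Of them, 30.5 to 31.0 Mb and 52.0 to 52.5 Mb were listed by 7 Cdca3 libraries. The window from 38.5 to 39.0 Mb was in 7 Pole libraries, the most of any. Conversely, 10 windows listed by all 8 Cdca3 libraries had no Pole site. No base was called in all 8 Pole libraries, 42.5 Mb (57.4%) was called in none, and calls in at least 6 made 2 blocks, 2.63 Mb at 28254233 to 30881477 and 2.51 Mb at 37369894 to 39880828.

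No window below 74 Mb was called different between genotypes. At the Cdca3 viewpoint 161 windows of chromosome 6 with at least 8 sites were tested with limma (log2 scale, 0.5 added to the sites, scaled per 1000 cis sites), of which 0.00% were called at an adjusted p under 0.05. Below 74 Mb, 70 windows were tested, 34 higher and 36 lower in Rb1L/L, and 0 were called, with 1 at an unadjusted p under 0.05 against 2.48% of all tested windows. The split was 28 higher and 42 lower when scaled to all listed sites, and 45 higher and 25 lower without Rb1L/L replicate 1. The smallest limma adjusted p was 0.955. At the Pole viewpoint 1346 windows off chromosome 5 were tested with limma, 0.00% were called, and of the 35 below 74 Mb 0 were called and 0 had an unadjusted p under 0.05, against 2.30% overall (smallest adjusted p 0.896). The median 95% interval reached 2.43 log2 units to either side at Cdca3 and 2.69 at Pole. Differences of several fold could thus go undetected in many single windows. The Pole intervals rest on a variance trend shared by all tested windows, not on each window's own spread. Cdca3 windows with many sites had narrower intervals, such as -0.37 to 0.31 from 71.5 to 72.0 Mb.

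The Cdca3 window of lowest p was 61.0 to 61.5 Mb, where Rb1L/L replicates 1 to 4 had 21, 55, 29 and 44 sites and Rb1+/+ replicates 1 to 4 had 0, 7, 0 and 17. The groups did not overlap, with a log2 difference of 3.86 (SE 1.46, limma adjusted p = 0.955). Next among windows higher in Rb1L/L were 22.0 to 22.5 Mb, with a log2 difference of 0.50 (45 to 75 sites in Rb1L/L and 29 to 51 in Rb1+/+), and 67.0 to 67.5 Mb, with 0.43 (45 to 77 sites in Rb1L/L and 34 to 58 in Rb1+/+). In both of them the groups overlapped.

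Among windows lower in Rb1L/L, 52.0 to 52.5 Mb came first, with 0, 18, 13 and 1 sites in Rb1L/L replicates 1 to 4 and 19, 24, 22 and 26 in Rb1+/+ replicates 1 to 4. Every Rb1L/L library was below every Rb1+/+ library in number of sites (log2 difference -2.66, SE 1.36, limma adjusted p = 0.955). It was followed by 35.0 to 35.5 Mb, with -2.22 (0 to 53 sites in Rb1L/L and 16 to 57 in Rb1+/+), and 63.5 to 64.0 Mb, with -2.07 (0 to 62 sites in Rb1L/L and 32 to 77 in Rb1+/+). In these 3 windows Rb1L/L replicate 1, the shortest Cdca3 list, had 0 sites. Without it the log2 differences were -1.90, -1.07 and -0.74, in the same order.

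At the Pole viewpoint the 3 windows of lowest p higher in Rb1L/L were 50.5 to 51.0 Mb (log2 difference 2.77), 51.0 to 51.5 Mb (2.36) and 17.0 to 17.5 Mb (1.32). In the first, Rb1L/L replicates 1 to 4 had 0, 10, 8 and 4 sites and no Rb1+/+ library had any. The window from 17.0 to 17.5 Mb had sites in 1 library only, 28 in Rb1L/L replicate 2. The lower ones were 4.5 to 5.0 Mb (-2.53), 38.0 to 38.5 Mb (-2.11) and 4.0 to 4.5 Mb (-2.04), and none of the 6 had a limma adjusted p below 0.896. From 4.0 to 5.0 Mb Pole sites were in Rb1+/+ replicates 3 and 4 and in no Rb1L/L library. Where libraries had 0 sites these log2 differences depend on the 0.5 added.

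Presence and absence gave few windows that leaned to a genotype. A site in at least 3 Rb1L/L and at most 1 Rb1+/+ Cdca3 libraries was found in 0 of 77 windows below 74 Mb, against 1.17% of the 171 windows of chromosome 6 with a Cdca3 site. The opposite pattern was found in 2 windows, against 1.17% likewise. They were 60.5 to 61.0 Mb, with 7, 0, 0 and 0 sites in Rb1L/L replicates 1 to 4 and 5, 2, 0 and 4 in Rb1+/+ replicates 1 to 4, and 64.0 to 64.5 Mb, with 0, 15, 0 and 0 sites in Rb1L/L and 3, 1, 15 and 36 in Rb1+/+. The balance depended on the setting. With sites of a value under 0.01, 2 windows leaned to Rb1L/L and 1 to Rb1+/+, and with 250-kb windows 2 and 4. At the Pole viewpoint 2 of 47 windows leaned to Rb1L/L, against 3.99% of 1804 windows off chromosome 5, and 1 leaned to Rb1+/+, against 2.88%. Those leaning to Rb1L/L were 28.0 to 28.5 Mb, in 3 Rb1L/L and 1 Rb1+/+ libraries, and 50.5 to 51.0 Mb, in 3 and 0, and the other was 30.0 to 30.5 Mb, in 1 Rb1L/L and 3 Rb1+/+ libraries.

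Of the 6321 Cdca3 sites, 16 were listed in all 4 Rb1L/L and no Rb1+/+ library. On all of chromosome 6 there were 20 such sites, 0.136% of 14736. Another 8 were listed in all 4 Rb1+/+ and no Rb1L/L library, against 16 (0.109%) on all of chromosome 6. The 16 and 8 together were 0.380% of the Cdca3 sites below 74 Mb, and the chromosome 6 numbers include them. Below 74 Mb, 814 Cdca3 sites were in exactly 4 libraries, and 4 of 8 libraries can be chosen in 70 ways. The other choices of 4 were not counted, so the 0.380% is not read as a genotype difference. At the Pole viewpoint there were 0 such sites in either direction, against 0.00% on all of chromosome 6.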

How the data were processed

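Lists of 16 4C-seq libraries were used. Each library had a list of sites in intervals mostly of 6 bp, each carrying a deposited p-value (or q-value: no header tells which), and a list of called regions with no score. All the deposited values were below 0.05. Per the submitters' processing notes, coordinates are on mm9, and for the aligner and caller nothing is given in the sources used here. Deposited p-values served only to filter sites at 0.01 in an alternative. The lists hold no read counts, so depth is unknown and no counting intervals were computed.

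Sites with starts within 7 bp were counted as 1 (Python 3.11.15, pandas 2.3.3, numpy 2.4.6, scipy 1.17.1). Groups of 4 libraries were compared by two-sided exact permutation tests and ratios per culture by exact sign-flip tests over 256 assignments, with 95% intervals by inversion and 0.5 added to sites before log2. Windows of 500 kb with at least 8 sites were tested with limma 3.58.1 (R 4.3.3, eBayes with trend, Benjamini-Hochberg) per 1000 cis or trans sites. The fit was also run on simulated windows, with changes placed only among those with most sites, so it cannot speak for changes in sparse windows. Densities of the stretch and of its part below 37 Mb were per Mb from the first listed site. Bin densities used the full length of each bin, so the first bin includes ground before that site. Windows, covered shares and shares of called bases were counted from the start of the chromosome. Labels give each Rb1L/L and Rb1+/+ pair of cultures a shared MEF pair identifier without saying what its members share. Whether cultures with different numbers came from separate embryos is not stated. Permutation and sign-flip p-values measure the spread between these samples. In limma a window's variance was drawn towards a trend over all tested windows. At Pole the fit had 8076 degrees of freedom, where a window's own spread between libraries gets no weight. Pole limma p-values and intervals thus rest on a variance trend shared by all tested windows. Over tested windows, deviations of same-numbered libraries correlated at 0.29, -0.10, 0.22 and -0.03 for Cdca3 pairs 1 to 4 and at 0.17, -0.03, -0.05 and 0.05 for Pole pairs 1 to 4, so the main fits had no block and blocked fits were alternatives.

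Named features were the 8 longest blocks and 8 longest gaps at Cdca3, the 3 windows of lowest p in each direction and all leaning windows per viewpoint, the 5 sites listed most often, and the sites next to the limit. The genotype test of the share of all sites was added after the values were seen. The stretch and these rules were chosen with earlier results of these data known. Gene names of blocks are not given, since no mm9 annotation was used; the promoter sequence came from RefSeq (GRCm38.p6).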

Additional observations from a re-analysis of the deposited data

Results flagged for a closer look

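For each viewpoint and genotype the 4 libraries were tested on several measures for a sample far from the others, 20 tests in all. Of these, 2 found one, where chance gives about 1, though measures of the same library are not independent. At the Cdca3 viewpoint, called regions covered 25.5% of the stretch in Rb1L/L replicate 1, against 36.0% to 37.5% in the other 3 Rb1L/L libraries. This library had the fewest listed sites of the 8, 15802. At the Pole viewpoint, Rb1L/L replicate 1 had a log2 density ratio of -7.44 for 37 to 74 Mb over below 37 Mb, against 0.27, 0.64 and 1.29 in the other Rb1L/L libraries. All 78 of its sites lay below 37 Mb, and its list of 6485 sites was the shortest of the 8. Both libraries came from the same culture by their labels. The part of list size in either value was not tested.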

How the results depend on the processing

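Of the results set against other processing, the Cdca3 over Pole share of all sites, the Cdca3 density ratio against the next 40 Mb and the Cdca3 ratio of 37 to 74 Mb over below 37 Mb kept their direction and call under every alternative run. Leaving out each replicate in turn, these log2 ratios ranged from 3.08 to 3.20, from -0.66 to -0.61 and from 0.85 to 0.91. No genotype difference passed the threshold under the alternatives run except that in the Cdca3 share of all sites without Rb1+/+ replicate 2, and several changed sign. Without single replicates, Rb1L/L minus Rb1+/+ ranged from -83.1 to 606 Cdca3 sites, from -13.1 to 34.6 Pole sites, from -0.507 to 2.19 percentage points of cis share and from -0.358 to 0.0791 of trans share. In the share of all sites it ranged from -1.16 to -0.623 points for Cdca3 and from -0.0688 to 0.112 for Pole. Coverage ranged from -1.26 to 3.09 points for Cdca3 and from -2.14 to 3.80 for Pole, and the Cdca3 minus Pole genotype difference in log2 share from -0.30 to 0.0087. The Cdca3 minus Pole difference of density ratios ranged from -0.17 to 0.057, the Pole ratio of 37 to 74 Mb over below 37 Mb from -0.71 to 0.61, and the Cdca3 minus Pole difference of that ratio from 0.25 to 1.56. That last difference passed only without Rb1+/+ replicate 1. With sites of a deposited value under 0.01, the trans share difference was 0.854 points, the Pole difference in share of all sites 0.219, the Pole density ratio -0.042, the Pole ratio across 37 Mb 0.97 and the Cdca3 minus Pole difference of that ratio -0.038. With called regions of at least 1 Mb, the Cdca3 coverage difference was -1.18 points. Blocks called in at least 6 of 8 libraries summed to 22.7 Mb. Without the 2 libraries farthest from the median, the Cdca3 correlation with list size was 0.716. The causes of these changes were not tested.

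With the replicate block, the genotype differences were 173 Cdca3 sites, 10 Pole sites, 0.584 points of cis share, -0.171 of trans share, 0.255 and 0.435 points of coverage, -0.906 (Cdca3) and -0.0026 (Pole) points of the share of all sites and -0.12 in log2 share between viewpoints, none past the threshold, which 4 pairs cannot reach (smallest p 0.125). The replicate block in limma called 0 windows at Cdca3 and 0 at Pole. It changed no call. Windows leaning to a genotype, counted under alternatives chosen after seeing the data, numbered 6 at Cdca3 and 5 at Pole with 250-kb windows, and 1 at Pole with 1-Mb windows. Because a list stops at a threshold, a site absent from a list is not shown to lack contact, and short lists such as Rb1L/L replicate 1 limit every comparison by site.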
